A study of Mus musculus with 12 samples.

Results

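The collagen genes are described here in the neonatal mouse cochlea, as they were measured on 12 Affymetrix GeneChip arrays. Their members were every array entry with a single gene symbol of the form Col, number, a, number, and the entry with the highest mean over the 12 arrays was taken for each gene. This gave 46 entries and 44 genes, since Col6a5 and Col6a6 had 2 entries each, out of 19938 genes with a single symbol. All 44 passed the level filter (a group mean over 6 on the log2 scale) and were tested together with the other genes, 16306 in all. The lowest mean of any collagen in any group was 6.17, and 6 of the 44 stayed under 7 in every group, so that their values lie close to the bottom of the scale.

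The tissue came from wild-type C57BL/6 pups at postnatal day 0 (P0) or 8 (P8). Each array measured 1 region (base, middle or apex) of the soft tissue of the cochlear duct, which held the hair cells and their neighbours, the limbus, and the stria and ligament at its outer side but not the surrounding bone, and each RNA came from many ears. The dissection was done 2 times, which gave 1 array of a first and 1 of a second dissection set for each region at each age, or 6 groups of 2. The sample titles carry a different year for each set. What the year refers to is not given, so the dissection and any later step done set by set cannot be told apart. The 3 regions of 1 dissection come from the same animals, so the 12 arrays stand for 4 pools. The values are log2 signals from robust multiarray averaging (RMA), in which a difference of 1 is a 2-fold difference. A signal depends on the probes of its gene, so no collagen is ranked against another by level.

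Collagens are secreted or membrane-bound proteins made of alpha chains wound into a helix, and each collagen type is built from its own chains. Fibrillar types form the fibrils of bone, tendon and cartilage, type IV forms the sheets of basement membranes, fibril-associated types decorate the fibrils, and network types form filaments and lattices. In the cochlea, types II, IX and XI are components of the tectorial membrane, the gel that lies over the hair cells. The type IV chains encoded by Col4a3, Col4a4 and Col4a5 lie in basement membranes of the cochlea and of the kidney, and their loss causes the hearing and kidney disorder Alport syndrome. By these classes the 44 genes fell into 11 fibrillar, 6 basement membrane, 9 fibril-associated, 9 network and 4 transmembrane genes, with 5 others (Col7a1, Col15a1, Col18a1, Col26a1 and Col28a1) that belong to none of them.

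Marker genes of the labelled tissue and of tissue around it were looked up. All 8 hair cell markers, all 8 supporting cell markers and all 8 stria vascularis markers had signals above 6 on every array, as did 5 of 6 markers of spiral ligament fibrocytes. So did 8 of 10 cartilage, 6 of 6 tendon and 7 of 10 skeletal muscle markers. Of the 19938 genes, 16306 had a group mean over 6, so a signal above 6 cannot show that a tissue was in the sample. Levels and changes of some marker groups follow. The mean log2 signal of 7 bone and osteoblast markers was 6.37 to 6.78 on the P0 arrays and 7.96 to 9.26 on the P8 arrays, although the bony capsule was not part of the sample. The means over markers of the lateral wall were higher at P8 too. The mean over the 8 stria vascularis markers was 8.90 to 9.82 at P0 and 10.06 to 10.94 at P8 (5 rose by at least 2-fold). That over the 6 spiral ligament markers was 9.72 to 10.10 and 10.36 to 10.73. Of these 6, 4 were higher and 2 lower at P8, with differences from -0.30 to 2.63, and 1 rose by at least 2-fold. The mean over 10 skeletal muscle markers was 7.66 on the first set's P0 apex array and 6.55 to 6.93 on the other 11. Because the arrays measured whole tissue, a lower signal from fewer cells of a type cannot be told apart from less RNA in each cell.

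Between P0 and P8, 4 collagen genes rose and 1 fell by at least 2-fold. Those that rose were Col8a1, a network collagen of blood vessels and of the corneal basement membrane, the basement membrane chains Col4a3 and Col4a4, and the fibrillar gene Col24a1, known from developing bone. The gene that fell was Col6a3, a chain of the type VI microfilaments that surround cells in connective tissue. These 4 and 1 of 44 compare with 2.06% and 1.14% of all tested genes that rose and fell by the same rule, a limma adjusted p under 0.05 and a fold of at least 2 for the mean of the 3 regions. That rule counts the 3 regions of a pool as separate arrays, and no collagen passed it when the means of each pool were compared.

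Col8a1 (Entrez gene 12837) had log2 signals of 8.57, 8.54 and 8.80 in the P0 base, middle and apex of the first set and 9.14, 9.04 and 9.11 in those of the second. At P8 they were 10.58, 10.78 and 10.73 in the first set and 10.74, 10.68 and 10.77 in the second. The ages did not overlap, and the P8 arrays lay between 10.58 and 10.78, while the P0 arrays of the first set were below those of the second. The difference was 1.85 ± 0.13 (SE, n = 6 arrays per age from 2 dissection sets), a fold of 3.60 (adjusted p = 4.35e-05), which was the largest change of any collagen, and by region it was 1.81, 1.94 and 1.80 from base to apex. Between the means of each pool the SE was 0.20 and the limma adjusted p 0.0761. Its partner gene in type VIII collagen, Col8a2, had means of 7.97 at P0 and 8.02 at P8, a difference of 0.05 ± 0.20. The mean over 8 endothelium and pericyte markers was 8.64 to 8.83 at P0 and 8.79 to 9.16 at P8, and all 8 were higher at P8. None of the 8 passed the test without a block. With the dissection set as a block and no fold threshold 5 passed, where 19.5% of all tested genes were higher. The part of vessels in the Col8a1 level was not tested.

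Col4a3 (Entrez gene 12828) gave 7.53, 7.001 and 6.68 from base to apex in the P0 arrays of the first set, 7.21, 6.95 and 7.33 in those of the second, and 8.92, 8.85 and 8.66 and 8.50, 8.36 and 8.31 at P8. Col4a4 (Entrez gene 12829), its head-to-head neighbour in the genome, gave 7.44, 7.46 and 6.84 and 7.17, 7.14 and 7.10 at P0 and 8.88, 8.87 and 8.56 and 8.05, 7.99 and 7.91 at P8. For both genes every P8 array lay above every P0 array, and the P8 arrays of the first set lay above those of the second. The differences were 1.48 ± 0.16 for Col4a3 (2.79-fold, adjusted p = 0.000341) and 1.18 ± 0.21 for Col4a4 (2.27-fold, adjusted p = 0.0049). The rise was larger in the first set (1.74 and 1.52) than in the second (1.23 and 0.84), a difference between sets that was not tested. Over the same arrays the mean of the stria vascularis markers was 1.14 higher at P8. That of the 6 spiral ligament markers was 0.60 higher, with 2 of the 6 lower, and the part of these tissues in the rise was not tested.

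None of the other 4 type IV genes passed the test without a block. Col4a5, whose chain joins those of Col4a3 and Col4a4, was higher at P8 in 6 of 6 pairs of arrays of 1 region and set, by 0.32 ± 0.15 (adjusted p = 0.175). Col4a1 and Col4a2, which encode the chains found in nearly all basement membranes, were lower at P8 in 6 of 6 pairs each, at differences of -0.37 ± 0.21 and -0.25 ± 0.30 (adjusted p = 0.271 and 0.622). Col4a6 differed by -0.04 ± 0.12, with 3 of 6 pairs higher.

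Col24a1 (Entrez gene 71355) gave 7.52, 7.07 and 7.34 in the P0 base, middle and apex of the first set and 7.38, 7.12 and 7.59 in those of the second, and 8.83, 8.89 and 8.88 and 8.61, 8.34 and 8.28 at P8. No P0 array reached the lowest P8 array. The difference was 1.30 ± 0.14 (2.47-fold, adjusted p = 0.000358). The 7 bone markers, of which 6 were tested, moved in the same direction over the same arrays, from 6.37 to 6.78 at P0 to 7.96 to 9.26 at P8, and their part in the result was not tested.

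Col6a3 (Entrez gene 12835) had signals of 8.77, 8.85 and 9.17 in the P0 base, middle and apex of the first set, 8.42, 8.17 and 8.32 in those of the second, and 7.62, 7.61 and 7.64 and 7.58, 7.48 and 7.48 at P8. All 6 P8 arrays lay below all 6 P0 arrays, and the highest value was that of the first set's P0 apex array, the one on which the skeletal muscle markers were also highest. The difference was -1.05 ± 0.17 (2.07-fold lower at P8, adjusted p = 0.00333). Without that array it was -0.91, still past the adjusted threshold (adjusted p = 0.00606) but under 2-fold, and the same held without the P0 base or the P0 middle array of the first set (-0.99 and -0.94). The part of muscle RNA in the Col6a3 level was not tested.

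The chains that join Col6a3 in the type VI microfilament moved the other way by smaller amounts. Col6a1 differed by 0.56 ± 0.16 (adjusted p = 0.045) and Col6a2 by 0.36 ± 0.10 (adjusted p = 0.0389), each higher at P8 in 6 of 6 pairs and each short of 2-fold. Col6a4, Col6a5 and Col6a6, which encode alternatives to the Col6a3 chain, differed by -0.02, 0.16 and 0.18 and did not pass the test.

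**Figure D1:**
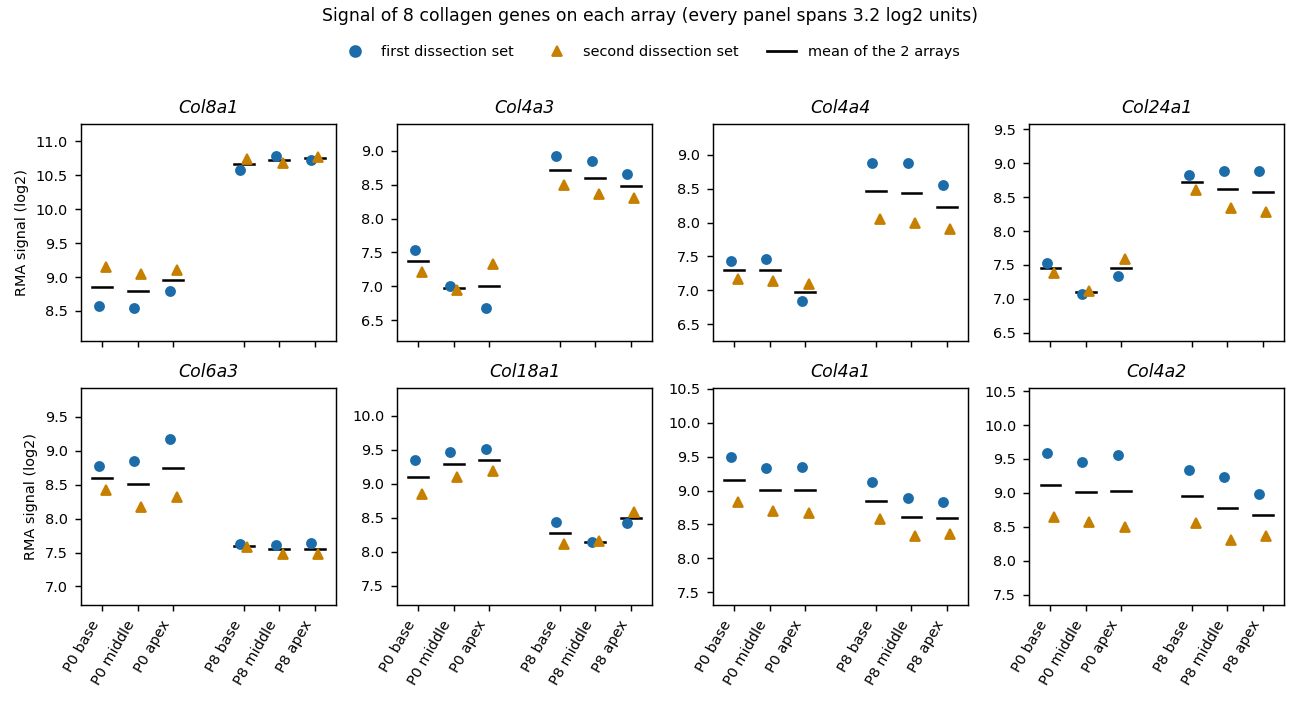
Log2 RMA signal (y axis) of 8 collagen genes in each region at each age (x axis). Each point is 1 array, circles for the first and triangles for the second dissection set, and black lines are the mean of the 2. The P8 arrays of Col8a1 lie between 10.58 and 10.78, all above its P0 arrays, those of Col6a3 lie between 7.48 and 7.64, all below its P0 arrays, and the ages overlap for Col4a1 and Col4a2.

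The stretch around the transcription start is shown for the genes past the 2-fold threshold except Col4a3, and for Col4a1 and Col4a2, which are transcribed away from each other and were both lower at P8 in every pair of arrays. The sequences are RefSeq windows of the mouse build GRCm38.p6 that run from 250 bases before to 50 bases after the start, written 5' to 3' on the strand of the gene. Capitals mark a GC box (GGGCGG) or a CCAAT box (CCAAT), letters that transcription factors are known to bind, on either strand. The TATA box (TATAAA) was searched too. Windows were found for 35 of the 44 collagens, 38 windows in all.
Col8a1, chr16:57754688-57754987, minus strand: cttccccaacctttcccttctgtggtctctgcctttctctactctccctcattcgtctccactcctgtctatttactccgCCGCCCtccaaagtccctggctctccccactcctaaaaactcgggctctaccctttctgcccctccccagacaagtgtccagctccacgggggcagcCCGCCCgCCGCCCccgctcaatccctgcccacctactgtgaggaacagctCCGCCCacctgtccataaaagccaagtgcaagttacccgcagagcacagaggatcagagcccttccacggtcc
Col4a4, chr1:82586800-82587099, minus strand: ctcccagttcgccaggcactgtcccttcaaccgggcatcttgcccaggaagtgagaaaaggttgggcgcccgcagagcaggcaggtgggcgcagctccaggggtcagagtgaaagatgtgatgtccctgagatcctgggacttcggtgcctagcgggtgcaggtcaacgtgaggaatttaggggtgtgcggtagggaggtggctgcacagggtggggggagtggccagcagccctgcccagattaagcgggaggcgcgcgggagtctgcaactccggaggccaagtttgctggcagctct
Col24a1, chr3:145292222-145292521, plus strand: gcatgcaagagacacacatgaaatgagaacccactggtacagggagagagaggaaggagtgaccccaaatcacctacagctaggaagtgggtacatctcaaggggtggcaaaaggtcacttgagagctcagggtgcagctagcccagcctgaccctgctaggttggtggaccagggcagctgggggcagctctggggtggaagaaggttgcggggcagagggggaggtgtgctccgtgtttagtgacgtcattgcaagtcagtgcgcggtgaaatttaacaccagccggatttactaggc
Col6a3, chr1:90843922-90844221, minus strand: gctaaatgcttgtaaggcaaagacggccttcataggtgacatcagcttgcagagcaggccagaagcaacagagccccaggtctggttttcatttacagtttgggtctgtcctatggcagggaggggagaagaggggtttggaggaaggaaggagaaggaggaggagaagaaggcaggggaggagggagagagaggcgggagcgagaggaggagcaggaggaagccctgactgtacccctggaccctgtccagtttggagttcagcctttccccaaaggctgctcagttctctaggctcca
Col4a1, chr8:11312777-11313076, minus strand: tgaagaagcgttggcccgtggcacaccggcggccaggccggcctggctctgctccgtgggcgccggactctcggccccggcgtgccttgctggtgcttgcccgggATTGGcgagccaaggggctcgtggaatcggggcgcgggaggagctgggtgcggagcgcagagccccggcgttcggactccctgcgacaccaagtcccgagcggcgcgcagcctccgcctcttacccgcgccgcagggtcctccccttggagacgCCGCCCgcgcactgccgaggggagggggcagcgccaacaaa
Col4a2, chr8:11312555-11312854, plus strand: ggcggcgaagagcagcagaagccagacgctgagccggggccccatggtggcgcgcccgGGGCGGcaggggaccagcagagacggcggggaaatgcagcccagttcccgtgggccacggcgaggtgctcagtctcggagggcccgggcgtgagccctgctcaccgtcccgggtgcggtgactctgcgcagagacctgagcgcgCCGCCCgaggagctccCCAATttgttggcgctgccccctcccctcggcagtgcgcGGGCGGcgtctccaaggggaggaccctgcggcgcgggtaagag

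The Col8a1 window held 4 GC boxes, and those of Col4a4, Col24a1 and Col6a3 held none of the searched motifs. The starts of Col4a1 and Col4a2 were 21 bases apart, so that their windows shared 78 bases, and they held 1 and 3 GC boxes and 1 CCAAT box each. Over the 38 collagen windows a GC box was found in 60.5%, a CCAAT box in 34.2% and a TATA box in 13.2%, against 35.7%, 37.4% and 13.6% of all 32851 windows of the same length. The windows were not matched for GC content, which had a median of 52.7% over all windows and was 56.3% to 74.0% in those printed here. Col6a2, Col9a1 and Col18a1 entered with more than a single window. Matches of different motifs can overlap and were counted apart, and a match to these letters is a description of the window.

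Without the fold threshold, 13 of the 44 collagens passed the adjusted p, 8 of them higher and 5 lower at P8, beside 18.7% of all tested genes (9.52% higher and 9.19% lower). The 8 comprise the 4 above, Col6a1, Col6a2, Col15a1 and Col13a1. Col15a1 and Col18a1, which encode related collagens of the zone under basement membranes, changed in opposite directions. Col15a1 gave 7.84, 7.93 and 7.70 and 8.09, 7.96 and 7.80 in the first and second set at P0 and 9.005, 8.83 and 8.55 and 9.20, 8.90 and 8.76 at P8, and Col18a1 gave 9.35, 9.47 and 9.52 and 8.85, 9.10 and 9.18 at P0 and 8.44, 8.15 and 8.42 and 8.11, 8.15 and 8.58 at P8. Neither gene's ages overlapped. The differences were 0.99 ± 0.08 (adjusted p = 0.000103) and -0.94 ± 0.13 (adjusted p = 0.00117), the first just short of 2-fold and past it when arrays were quantile normalized or centred on their medians (1.02 in both).

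Of the other collagens lower at P8, Col12a1, a fibril-associated collagen of dense connective tissue, ranged from 9.35 to 9.90 with a median of 9.42 at P0 and from 8.64 to 8.97 with a median of 8.78 at P8. The difference was -0.72 ± 0.10 (adjusted p = 0.00144). Col25a1, a transmembrane collagen of neurons, differed by -0.43 ± 0.07 (adjusted p = 0.00443), and Col26a1 by -0.58 ± 0.10 (adjusted p = 0.00347). Among the transmembrane genes, Col13a1, a collagen of the neuromuscular junction, was 0.54 ± 0.11 higher at P8 (adjusted p = 0.00855), while Col17a1 of the hemidesmosome and Col23a1 differed by 0.20 and -0.17 (adjusted p = 0.203 and 0.231).

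The ages did not overlap for 11 collagens. All P8 arrays lay above all P0 arrays for 6 (Col8a1, Col4a3, Col4a4, Col24a1, Col15a1 and Col13a1), where 8.08% of all tested genes did so, and below them for 5 (Col6a3, Col18a1, Col12a1, Col25a1 and Col26a1), where 7.41% did. In pairs of arrays of 1 region and 1 set, 18 of 44 collagens were higher at P8 in 6 of 6 pairs, beside 19% of all tested genes, and 8 of 44 (18.2%) in none, which is near the 20.5% of all tested genes. The median change of the 44 was 0.13 on the log2 scale, and that of all tested genes was 0.00. The collagens' median depends on single arrays: it was 0.065 without the P0 base array of the second set, 0.07, 0.08 and 0.09 without the P8 apex, base and middle array of the first set, and 0.20 without the P0 base array of the first set. With the replicate block it was 0.07 when the first P0 apex array was left out.

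The fibrils of type I and type II tissue gave a different picture, since their genes differed more between the dissection sets than between the ages. Col1a1 and Col1a2 encode the chains of type I collagen, the main collagen of bone and tendon. Col1a2 gave 12.15, 11.87 and 11.93 in the first and 11.03, 10.59 and 10.40 in the second set at P0, and 12.88, 12.57 and 12.48 and 11.57, 11.36 and 11.19 at P8. Every pair was higher at P8, but the P8 arrays of the second set lay below the P0 arrays of the first. Col1a2 differed between ages by 0.68 ± 0.44 (adjusted p = 0.339) and Col1a1 by 0.62 ± 0.55 (adjusted p = 0.485), whereas the first set exceeded the second by 1.29 and 1.55.

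The genes of types II, IX and XI behaved likewise. Col2a1, the type II chain, gave 12.12, 12.00 and 11.98 and 11.33, 11.12 and 11.07 in the first and second set at P0 and 12.77, 12.43 and 12.27 and 11.85, 11.50 and 11.35 at P8. Col11a1 and Col11a2, whose chains sit in the core of type II fibrils, and Col9a1 and Col9a3, whose chains lie on their surface, were also higher at P8 in 6 of 6 pairs. The differences were 0.43 ± 0.31 for Col2a1, 0.49 ± 0.31 for Col11a1, 0.89 ± 0.39 for Col11a2, 0.69 ± 0.36 for Col9a1 and 0.51 ± 0.26 for Col9a3, with adjusted p of 0.163 to 0.395. Col9a2 was 0.01 ± 0.36 and higher in 4 of 6 pairs. Over the same arrays the mean of the 10 cartilage markers was 0.62 higher at P8, with 4 of the 10 lower. That of the 6 tendon markers was 0.73 higher, with 1 of the 6 lower, and that of the bone markers was 2.23 higher. The part of these tissues in the type I, II, IX and XI levels was not tested.

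When the dissection set was entered as a replicate block, which compares ages within each set, the 5 genes past 2-fold stayed the same 4 higher and 1 lower (2.18% and 1.26% of all tested genes). Without the fold threshold 24 collagens then passed, 16 higher and 8 lower, but so did 41.3% of all tested genes (19.5% higher and 21.8% lower). The added genes included Col1a1 (0.62 ± 0.14, adjusted p = 0.00483 with the block), Col1a2 (0.68 ± 0.07, 2.26e-05), Col2a1 (0.43 ± 0.06, 0.000237), Col11a1 (0.49 ± 0.07, 0.00016) and Col11a2 (0.89 ± 0.07, 5.04e-06). Col9a1, Col9a3 and Col4a5 were added too (adjusted p = 1.87e-05, 0.000152 and 0.00809), and so were the lower Col4a1 (0.000768), Col4a2 (0.0165) and Col5a1 (-0.27 ± 0.07, 0.0146), which encodes a chain of type V collagen, a regulator of fibril width. Since the 3 pieces of a pool share animals, the means of each pool were also compared, 2 against 2, and no collagen then passed (adjusted p = 0.0761 for Col8a1, 0.0856 for Col4a3 and 0.111 to 0.219 for the other 3), while 5 of all tested genes did. With the block added to the pool means, a fit chosen after seeing the data, the 4 and 1 passed. That fit has few pool means for its terms, so its p-values rest mostly on the spread shared over genes. The share of all tested genes that passed it is not given here.

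The other 20 collagens did not pass between the ages without or with the block. The differences of 8 of them (Col4a6, Col9a2, Col6a4, Col6a5, Col6a6, Col8a2, Col17a1 and Col23a1) are given with their groups above, and the other 12 gave -0.19 to 0.22. Among the fibrillar genes these 12 included Col3a1 of skin and vessels (0.15 ± 0.47), the type V chains Col5a2 (-0.08 ± 0.32) and Col5a3 (0.03 ± 0.09), and Col27a1 of cartilage (0.12 ± 0.09). Among the fibril-associated genes they were Col14a1 (-0.19), Col16a1 (-0.08), Col19a1 (0.09), Col20a1 (0.21) and Col22a1 of the muscle-tendon junction (0.22). Col10a1, the collagen of hypertrophic cartilage, stayed between 6.29 and 7.02 at P0 and between 6.05 and 6.45 at P8, and Col7a1 of the anchoring fibrils and Col28a1 differed by 0.10 and 0.07.

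**Figure D2:**
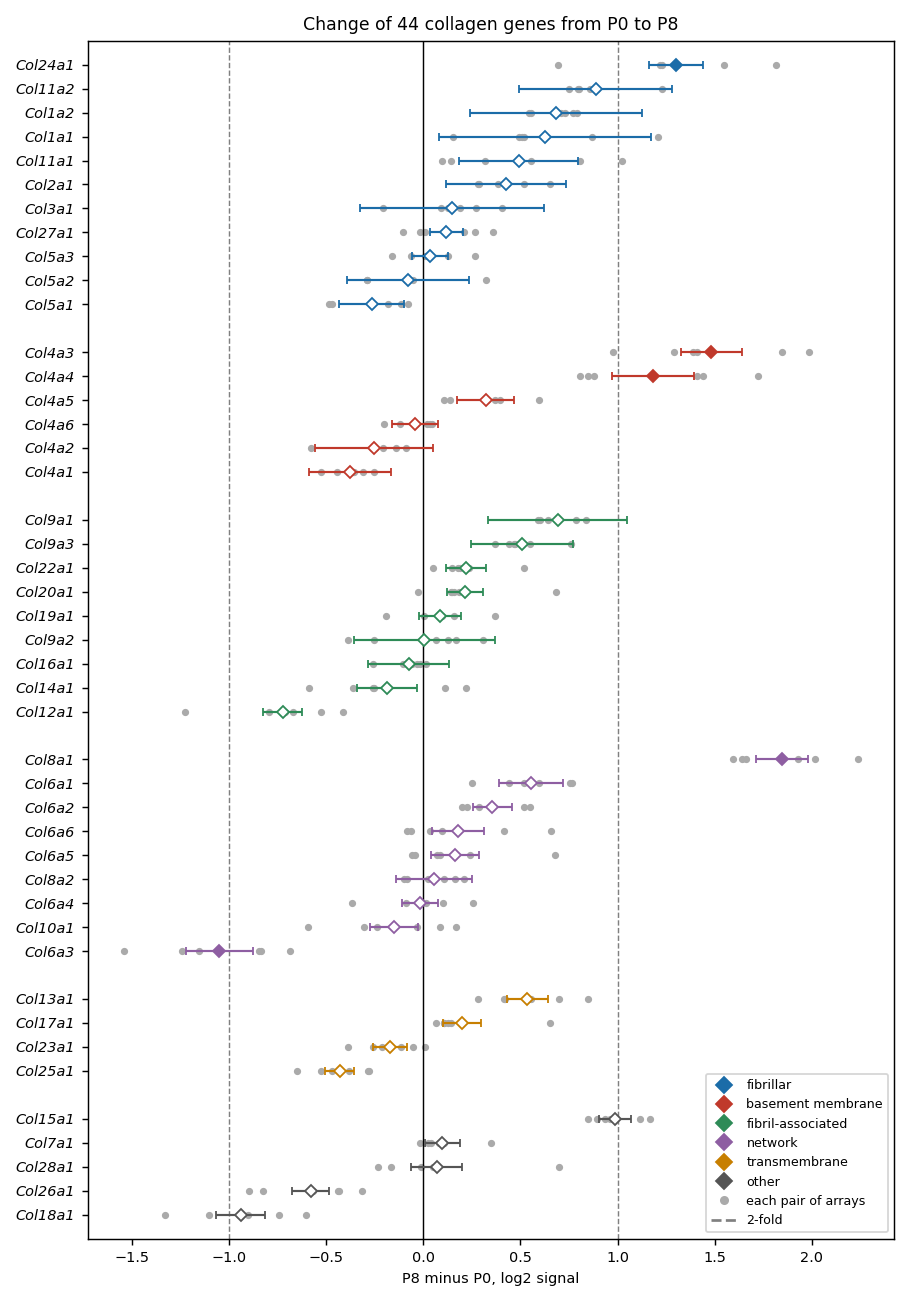
Difference in log2 signal between P8 and P0 (x axis) for the 44 collagen genes, by group. Diamonds are the mean of the 3 regions with its SE from limma without a block, filled where the gene passed the test with at least 2-fold, grey points are the 6 pairs of arrays of 1 region and set, and dashed lines mark 2-fold. Col8a1 lies farthest to the right at 1.85 and Col6a3 farthest to the left at -1.05, and the SE is wide for the type I, II and XI genes.

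The offset between the dissection sets ran in 1 direction for many collagens. Averaged over the 6 groups, the first set exceeded the second by more than 0.5 in 14 of 44 collagens, against 6.65% of all tested genes, and by more than 1 in 6, against 0.944%. Col1a1 (1.55), Col3a1 (1.39), Col1a2 (1.29), Col11a2 (1.14), Col9a2 (1.03) and Col9a1 (1.03) made up these 6, and the offset of each was positive in 6 of 6 groups. The median offset was 0.90 over the 11 fibrillar genes, 0.24 over all 44 and -0.02 over all tested genes. The offset was negative for 5 collagens, Col8a1 (-0.25), Col6a6 (-0.21), Col26a1 (-0.15), Col15a1 (-0.14) and Col17a1 (-0.08). Over the same pairs the bone markers were 0.26 higher in the first set, cartilage markers 0.05 higher and tendon markers -0.04, and the part of these tissues in the offset was not tested. Whether both sets were normalized in 1 run is not given in the sources used here.

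**Figure D3:**
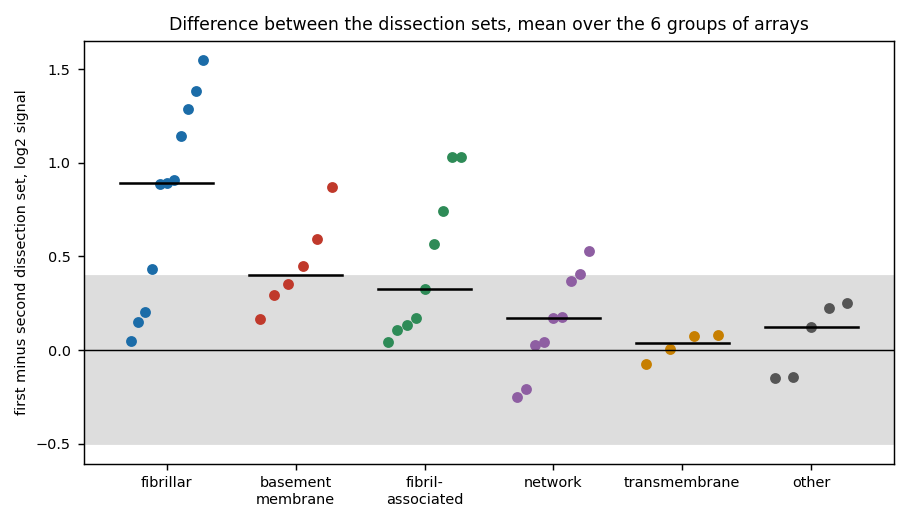
First minus second dissection set in log2 signal (y axis), averaged over the 6 groups of age and region, for each collagen gene by group (x axis). Black lines are the group medians and the grey band spans the 10th to the 90th percentile of all tested genes (-0.50 to 0.39). Most fibrillar genes lie above the band, up to 1.55 for Col1a1, and the transmembrane and other genes lie within it.

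Along the tonotopic axis, no collagen passed the test between apex and base at P0, and at P8 Col14a1, Col11a1 and Col5a2 passed it, lower in the apex, when the dissection sets were fitted as a block and not without it. At P0 the count was 0 without a block (0.00613% of all tested genes passed at an adjusted p under 0.05 and at least 1.5-fold) and 0 with the replicate block (0.675%), and no collagen had even an unadjusted limma p under 0.05 together with 1.5-fold, nor did any by the methods' t-test. By the unadjusted limma rule without a block, 97 of the 16306 tested genes were higher and 91 lower in the apex at P0. At P8 the count was 0 without a block (0.196%), with 1 collagen, Col14a1, at an unadjusted p under 0.05 and 1.5-fold by limma and none by the methods' t-test. That unadjusted limma rule held for 198 of all tested genes higher and 120 lower in the apex at P8. Fitted with the replicate block, which compares apex and base of the same animals, these 3 collagens passed at P8 (1.58% of all tested genes differed in either direction). With each pool of age and set as a block, the same 3 passed at P8 (2.81%) and 0 at P0 (1.42%). Without the fold threshold that fit called 9 at P8, all lower in the apex (4.78%), and 1 at P0, Col14a1 (2.12%).

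Col14a1 encodes a fibril-associated collagen of tendon and other dense tissue, Col11a1 a type XI chain and Col5a2 a type V chain. At P8, Col14a1 (Entrez gene 12818) gave 10.29, 9.82 and 9.48 in base, middle and apex of the first set and 9.84, 9.14 and 8.98 in those of the second, falling towards the apex in each. Col11a1 (Entrez gene 12814) gave 11.85, 11.38 and 11.04 and 10.81, 10.39 and 10.20, and Col5a2 (Entrez gene 12832) gave 9.51, 9.03 and 8.77 and 8.38, 8.11 and 7.88. In each set the apex was the lowest and the base the highest, but for Col11a1 and Col5a2 the apex of the first set lay above the base of the second.

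The apex-base differences at P8 were -0.83 ± 0.17 for Col14a1 (1.78-fold, adjusted p = 0.0377 with the replicate block), -0.72 ± 0.11 for Col11a1 (1.64-fold, adjusted p = 0.00992) and -0.62 ± 0.12 for Col5a2 (1.54-fold, adjusted p = 0.0256). Without the block their adjusted p were 0.72, 1 and 1. Col2a1 passed the adjusted p with the block but not 1.5-fold (-0.50 ± 0.11, adjusted p = 0.0406). The blocked calls rest on 2 arrays a region: leaving out any 1 of the P8 base or P8 apex arrays left 0 collagens past the test. Over the same arrays the bone markers were 0.56 and 1.11 lower in the apex in the first and second set, the 6 tendon markers 0.54 and 0.51 lower and the 10 cartilage markers 0.29 and 0.21 lower, while the hair cell markers were 0.38 and 0.49 higher, and the part of these tissues in the 3 results was not tested.

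At P0 the same genes gave smaller differences. Col14a1 was lower in the apex in both sets, at differences of -0.33 and -0.75. Col5a2 was -0.12 and -0.30. Col11a1 gave 10.83, 10.82 and 10.94 and 10.01, 10.07 and 10.05 in base, middle and apex, an apex-base difference of 0.11 and 0.04. Its mean difference at P0, 0.08 ± 0.11 with the replicate block, did not pass (limma adjusted p = 0.863).

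Whether the apex-base difference itself changed with age was tested as a contrast of its own, and 0 collagens passed (0% of all tested genes without a block and 0.178% with the replicate block). No collagen had an unadjusted limma p under 0.05 without the block and 4 of 44 had with it, where 6.52% of all tested genes did. Col11a1 had the largest change, -0.79 ± 0.75, with an adjusted p of 1 without a block and 0.125 with the replicate block. It passed with each pool of age and set as a block (adjusted p = 0.0242), as did 0.926% of all tested genes.

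Many collagens leaned towards the base without passing. By group means, 24 of 44 were highest in the base and lowest in the apex, with the middle between, at P0, against 19.5% of all tested genes, and 23 of 44 did so at P8, against 24.6%. The apex was below the base in both sets in 22 of 44 at P0 (19.8% of all tested genes) and in 30 of 44 at P8 (31.8%). The median apex-base difference of the collagens was -0.20 at P0 and -0.16 at P8, beside 0.03 and 0.00 over all tested genes. Within the first and the second set it was -0.20 and -0.08 at P0 and -0.19 and -0.13 at P8. These medians depend on single arrays. The P0 median was 0.065 and -0.41 without the P0 base array of the first or second set and -0.07 without the P0 apex array of the second. The P8 median was 0.04 and -0.25 without the P8 base array of the first or second set and -0.30 and 0.01 without the P8 apex array of the first or second. With the replicate block the P0 median was -0.10 when the first P0 apex array was left out and the P8 median -0.09 without the P8 base array of the first set. Among the 11 fibrillar genes the median was -0.18 at P0 and -0.49 at P8, and 10 were lower in the apex at P8, where 49.4% of all tested genes were. All 6 type IV genes had lower means in the apex at both ages by 0.04 to 0.37 (42.8% of all tested genes did at P0 and 49.4% at P8), and none passed the test. The stria vascularis markers were -0.36 and -0.61 in the apex against the base in the first and second set at P0 and -0.32 and -0.42 at P8, and their part in the type IV differences was not tested.

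For some genes the sets gave opposite signs at P0. Col4a3 was -0.85 in the first set and 0.12 in the second, Col1a1 was 0.64 and -0.60, and Col12a1 was 0.43 and -0.20. The genes past 2-fold between the ages had apex-base differences at P8 of 0.09 for Col8a1, -0.22 for Col4a3, -0.23 for Col4a4, -0.14 for Col24a1 and -0.04 for Col6a3, none of which passed. Col18a1 was 0.17 and 0.33 in the first and second set at P0, higher in the apex in both, but -0.03 and 0.47 at P8. Col28a1, known from basement membranes of peripheral nerve, was 0.42 and 0.27 higher in the apex at P8. Neither passed the test.

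**Figure D4:**
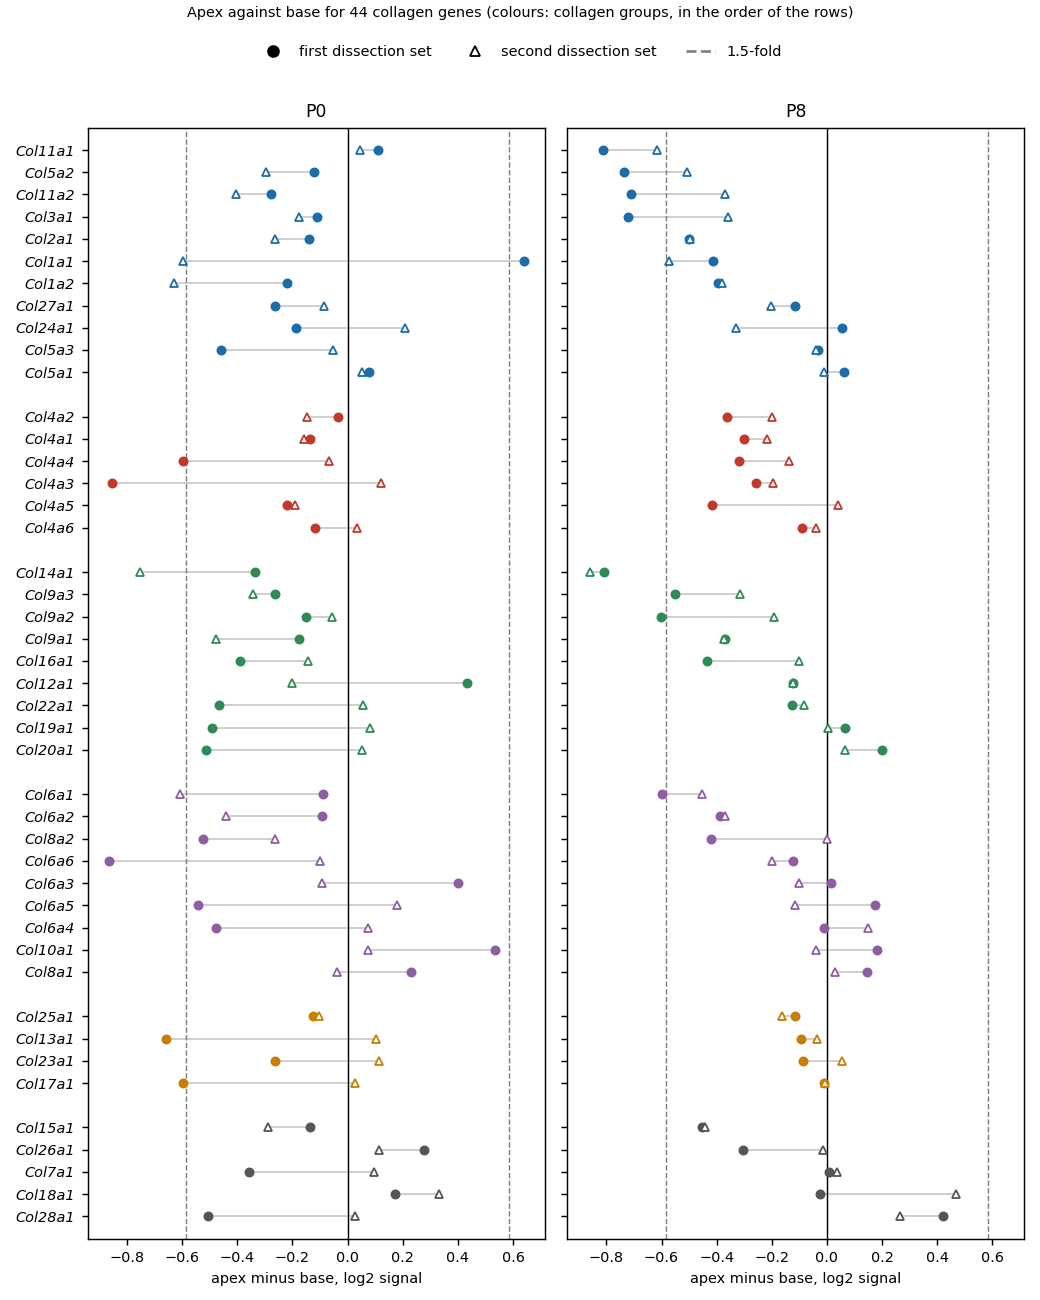
Apex minus base in log2 signal (x axes) for the 44 collagen genes at P0 (left panel) and P8 (right panel), coloured by collagen group. Filled circles are the first and open triangles the second dissection set, joined by a line, and dashed lines mark 1.5-fold. At P8 the points of Col14a1, Col11a1 and Col5a2 lie between -0.86 and -0.51, and at P0 those of Col11a1 lie just above 0.

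The genes that make, process, bind and break down collagen were taken from a list of 57 genes, of which 52 were on the array and 51 were tested. From P0 to P8, 2 rose and 1 fell by at least 2-fold, where 2.06% and 1.14% of all tested genes did. Those that rose were Itga10, the alpha subunit of a collagen-binding integrin of cartilage cells, by 1.19 ± 0.10 (adjusted p = 9.78e-05), and Mmp9, a gelatinase that degrades denatured collagen, by 1.14 ± 0.19 (adjusted p = 0.0037). Mmp9 is also made by osteoclasts, and it was highest on the P8 base arrays, at 9.14 and 8.69. The part of osteoclasts in the Mmp9 level was not tested. P4ha3, a subunit of prolyl 4-hydroxylase, differed by -1.40 ± 0.37 (adjusted p = 0.0312), while P4ha1 and P4ha2 of the same enzyme differed by 0.50 and -0.80. None of the 5 tested cross-linking genes and none of the 7 for propeptide removal passed with 2-fold.

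Without the fold threshold 15 of the 51 were higher, beside 9.52% of all tested genes, and 5 were lower, which is near the 9.19% of all tested genes. They included the collagen receptor Ddr2 (0.97 ± 0.16, adjusted p = 0.0029) and the lysyl hydroxylase Plod1 (0.84 ± 0.10, 0.000585), both higher at P8, and the propeptide protease Tll2 (-0.97 ± 0.11, 0.0006), which was lower. Between apex and base, 0 of the 51 passed at either age without a block, where 0.00613% of all tested genes did at P0 and 0.196% at P8. With the replicate block at P8, where 1.58% of all tested genes passed, 2 of the 51 did. The propeptide enhancer Pcolce2 was lower in the apex (-0.85 ± 0.13, adjusted p = 0.00836) and P4ha3 higher (0.78 ± 0.15, adjusted p = 0.0232). With each pool as a block, 3 of the 51 passed at P0, beside 1.42% of all tested genes. P4ha2 (0.77, adjusted p = 0.0104) and Mmp16, a membrane-bound metalloproteinase (0.65, 0.00643), were higher in the apex, and Tll2 (-0.61, 0.0223) was lower. At P8 that fit called 2.81% of all tested genes. It added 3 genes lower in the apex, Crtap of the prolyl 3-hydroxylase complex (-0.60, 0.0147), Mmp9 (-0.95, 0.0155) and Ctsk, a protease of osteoclasts (-0.72, 0.0171).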

How the data were processed

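RNA of pooled base, middle and apex pieces of the mouse cochlea was measured on 12 arrays, 2 in each of 6 groups of age and region. The authors estimated expression by robust multiarray averaging (RMA), and the deposited values are log2 signals of 35556 entries, with array medians of 7.21 to 7.29. No version of RMA is given in the sources used here, and probe-level data were not used. Entries with several gene symbols (1621) or none (12146) were left out. Genes with a mean log2 signal over 6 in at least 1 group were tested (16306 genes).

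Differences were fitted with limma 3.58.1 in R 4.3.3, with 6 group means, lmFit and eBayes, and p-values were adjusted by Benjamini-Hochberg over all tested genes. A call needed an adjusted p under 0.05, with at least 2-fold for P8 over P0 (mean of 3 regions) and 1.5-fold for apex over base. Deviations of the dissection sets from the group means correlated in all 15 pairs of groups (0.54 to 0.92), and both regions of an apex-base comparison come from the same pool, so the sets pair the arrays and a fit with the set as a replicate block is given where it changed a call. With 2 arrays a group, the number of arrays limits the precision, and the arrays of 1 pool are not independent. Named genes were the collagens past any test, the extremes of each collagen group, collagens of hearing loss or of the tectorial membrane, and related genes past the P8-P0 test. Any other gene was named after its values were seen. The collagens and all gene lists were chosen with earlier results of these data known.

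Alternatives were the pool as unit or block, quantile normalization, median centring, other signal thresholds, the mean of all entries of a gene, a mean-variance trend, the methods' t-test and leaving out each array. Promoter windows were taken from RefSeq (GRCm38.p6).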

Additional observations from a re-analysis of the deposited data

Results flagged for a closer look

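The apex-base difference of Col11a1 was near 0 at P0, at 0.08 ± 0.53 without a block and 0.08 ± 0.11 with the replicate block, and did not pass there. It was positive in both dissection sets at P0 (0.11 and 0.04) and negative in both at P8 (-0.81 and -0.62), a change of -0.79 on the log2 scale, with a limma adjusted p of 1 without a block, 0.125 with the replicate block and 0.0242 with the pool as a block. Col26a1 gave 0.28 and 0.11 at P0 and -0.30 and -0.02 at P8, a change of -0.35 that passed in no fit (adjusted p = 1, 0.767 and 0.374 in the same order).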

How the results depend on the processing

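The 4 higher and 1 lower collagens between the ages kept their sign under every alternative run, as did Col14a1, Col11a1 and Col5a2 between apex and base at P8. Collagens called there only with the pool as a block and no fold threshold could reverse. With single arrays left out and no block, the P8 apex-base difference reached 0.18 for Col11a2 and 0.04 for Col9a3. For P8 over P0, dropping the fold threshold gave 8 collagens higher and 5 lower in place of 4 and 1, and dropping it with the replicate block gave 16 and 8. The mean of each pool gave 0 and 0, and the replicate block alone left 4 and 1. Leaving out each array in turn gave 4 to 5 higher and 0 to 2 lower with or without the block. Col6a3 fell under 2-fold without the P0 base, middle or apex array of the first set, or, with the block, without its P0 middle, P0 apex or P8 base array. Col18a1 made the second lower gene without the P0 base array of the second set, or, with the block, without its P8 apex array. Quantile normalization and median centring gave 5 higher, with Col15a1 as the fifth.

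For apex over base at P8, 0 collagens passed without a block, 3 with the replicate block, 4 with the block and no fold threshold, 3 with the pool as a block, and 9 with the pool as a block and no fold threshold. With the replicate block and no fold threshold, 201 of the 16306 tested genes were higher and 78 lower in the apex. Leaving out arrays with the block gave 0 to 3: it was 0 without any P8 base or P8 apex array, and 2 without a P0 middle or P0 apex array. The count at P0 was 0 in each alternative but the pool as a block with no fold threshold, which gave 1 (Col14a1). The change of the apex-base difference gave 1 collagen, Col11a1, with the pool as a block. Chosen after seeing the data were the pool means with the block (4 higher and 1 lower), either block without a fold threshold and the replicate block without each array. Without the block the SE of the apex-base difference at P8 reached 0.95, for Col1a1, and with it 0.25. The cause of these shifts was not tested.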
